A study of Mus musculus with 6 samples.

Results

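The genes described here are 34 genes of glucose breakdown and of the response to low oxygen. They were given as a list of symbols, and all 34 are present among the 21847 genes of the deposited count table and among the 14605 genes tested. They fall into 4 transporters, 16 glycolytic enzymes, 3 regulatory kinases and 11 genes of the hypoxia-inducible factor (HIF) pathway. RNA came from mouse spleen cells, labelled as sorted macrophages, after 3 days of culture with mesenchymal stromal cells (MSCs) of human cord tissue. The MSCs carried Qtracker, a quantum dot label, and the spleen cells given to them had lost their T cells beforehand. Every library of both groups comes from such a co-culture. Cells that held the label form the Qtracker positive group. Cells without it form the Qtracker negative group. Each group has 3 libraries, described by the submitters as paired. Strain, age and genotype of the mice are not given in the sources used here. Nothing there says that the pairs are different mice, and a p-value below therefore speaks of variation among 6 libraries that may be technical. The sorting gate required CD11b, with Ly6G excluded according to one label and Ly6C according to another.

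Glycolysis splits glucose into pyruvate in the cytosol, and lactate dehydrogenase and a lactate exporter keep it running when pyruvate is not burnt in mitochondria. The HIF transcription factors are destroyed when oxygen is present, because prolyl hydroxylases mark their alpha subunits, and when they persist they raise glucose uptake, most glycolytic enzymes and a set of other targets. In macrophages the alpha subunit encoded by Hif1a is also induced by inflammatory signals, and glycolysis is known to rise in inflammatory activation.

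HIF binds DNA through short core letters, so the promoters of 3 members that were higher in Qtracker positive libraries are shown to let a reader see these letters in place. They are those with the lowest p (edgeR) among the higher members whose windows hold ACGTG, so that match was required and not found. Pdk1, with a lower p than P4ha2 and Hif1a, was passed over because its windows hold no ACGTG. Sequences are from RefSeq (build GRCm38.p6), run 5′ to 3′ on the gene's strand from 250 bases before a transcript start in RefSeq's table to 50 after it, and carry in capitals each ACGTG or GCGTG on either strand.
P4ha1, chr10:59323046.0-59323345.0 (+ strand): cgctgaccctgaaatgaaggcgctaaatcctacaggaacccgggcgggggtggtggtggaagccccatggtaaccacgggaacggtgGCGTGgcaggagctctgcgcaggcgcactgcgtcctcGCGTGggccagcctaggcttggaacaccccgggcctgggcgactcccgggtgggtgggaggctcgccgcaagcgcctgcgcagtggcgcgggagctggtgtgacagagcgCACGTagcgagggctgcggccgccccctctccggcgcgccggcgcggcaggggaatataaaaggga
P4ha2, chr11:54100674.0-54100973.0 (+ strand): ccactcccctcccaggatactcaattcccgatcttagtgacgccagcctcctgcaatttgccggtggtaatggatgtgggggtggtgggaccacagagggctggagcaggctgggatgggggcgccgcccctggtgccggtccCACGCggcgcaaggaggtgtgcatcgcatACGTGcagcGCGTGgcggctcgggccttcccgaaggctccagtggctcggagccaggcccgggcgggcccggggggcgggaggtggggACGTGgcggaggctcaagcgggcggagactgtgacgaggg
Hif1a, chr12:73907617.0-73907916.0 (+ strand): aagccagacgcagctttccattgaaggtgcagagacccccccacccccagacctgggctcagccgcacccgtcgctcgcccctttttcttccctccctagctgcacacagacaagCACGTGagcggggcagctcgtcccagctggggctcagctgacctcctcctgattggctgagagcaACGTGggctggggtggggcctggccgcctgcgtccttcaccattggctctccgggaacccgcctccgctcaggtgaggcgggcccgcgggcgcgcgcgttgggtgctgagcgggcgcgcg
In the P4ha1 window the 1 match to ACGTG begins 16 bases before the start, on the opposite strand. One match in P4ha2 begins 78 bases before the start and the other lies just after it. In Hif1a the letters begin 70 bases before the start and again 134 bases before it, where they lie within CACGTG, which reads as ACGTG on both strands. The Hif1a window lies at an inner start, downstream of the gene's first annotated base given below, and the bases just past its start were not found in a GENCODE transcript of the gene. Promoters were found for 32 of the 34 members, but not for Slc2a3 and Ndrg1. A window with ACGTG on either strand was present for 22 of the 32, or 68.8%, against 29.0% of the 10274 tested genes with a promoter. It was present for 21.8% of all 27025 genes with a promoter, and in 19.6% of all 32851 windows counted singly. For Hif1a, Egln3, Pgam1 and Ldha the ACGTG lay only in windows whose bases past the start were not found in a GENCODE transcript. GCGTG was present for 21 members, or 65.6%, against 54.6% of tested genes. Among members higher in Qtracker positive libraries 5 of 7 held ACGTG, and among the members with a promoter that did not pass the test 17 of 23 did, while neither of the lower members with a promoter did (0 of 2). GCGTG was held by 6 of 7 higher members (85.7%), 2 of 2 lower ones and 13 of 23 that did not pass (56.5%). A match is a description of the letters and not of binding.

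The libraries held 33943090 to 55506993 counts. Replicate 1 of the Qtracker negative group stands apart from replicates 2 and 3, and it does so in cell markers as well as in the genes described here. The summed level of 15 neutrophil markers was 3779 CPM (counts scaled to library size after TMM normalization) in negative replicate 1, against 77126 and 77294 CPM in negative replicates 2 and 3, and was 1479 to 2286 CPM in the positive group, with Ly6g at 0 in 1 positive library. Mmp8 made up 1004, 694 and 783 CPM of the positive sums, against 98.8, 887 and 948 CPM in the negative libraries. Csf3r was 126, 303 and 282 CPM in positive and 51.6, 593 and 595 CPM in negative libraries. Both stood above negative replicate 1 in every positive library, and the other markers below it. By edgeR 11 of the 15 were lower and 0 higher in the positive group, where 16.3% of all tested genes were lower. The 8 B cell markers summed to 5075 CPM in negative replicate 1, against 1716 and 1808 CPM in negative replicates 2 and 3 and 189 to 257 CPM in the positive group. The 10 macrophage markers summed to 555 CPM in negative replicate 1, to 3396 and 3315 CPM in negative replicates 2 and 3, and to 11263 to 12678 CPM in the positive group, so macrophage transcripts are low in the negative group against its label. Itgam, the CD11b gene of the sort, made up 2269 and 2211 CPM of the macrophage sum in negative replicates 2 and 3, and at 1820 and 1836 CPM was lower in positive replicates 2 and 3. The 5 eosinophil markers summed to 32.1 to 55.0 CPM in the negative and 79.5 to 309 CPM in the positive group, but did not move together. The granule genes Prg2 and Epx carried the higher sum, while Siglecf (4.38 to 12.9 CPM in negative and 0.423 to 3.34 CPM in positive libraries), Ccr3 (1.90 to 7.15 and 0.285 to 0.507 CPM) and Il5ra (3.996 to 8.09 and 0 to 0.550 CPM) were lower in the positive group. The summed markers of T and NK cells (10) were 38.9 to 201 CPM in the negative and 3.55 to 14.2 CPM in the positive group, and those of dendritic cells (7) were 131 to 414 and 15.2 to 19.0 CPM. Most of the dendritic sum was Ccr7, at 353, 106 and 113 CPM in negative and 14.4, 12.6 and 12.3 CPM in positive libraries. Xcr1 and Clec9a did not exceed 0.661 CPM in any library and overlapped between the groups. Erythroid markers (6 in the table) did not exceed 9.88 CPM in sum and stromal markers (8 in the table) 10.4 CPM in any library, with Col3a1, Pdgfra, Lum, Hbb-bt, Alas2 and Slc4a1 each at 0 in at least 1 library. Klrb1c and Ncr1 of NK cells and Cd209a of dendritic cells were also at 0 in at least 1 library. In bulk RNA fewer cells of a type and less RNA per cell cannot be told apart, and the part of these other cells in the differences below was not tested.

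Of the 34 members 7 were higher and 3 lower in Qtracker positive libraries, by edgeR's quasi-likelihood test with the pair as a block and a Benjamini-Hochberg adjusted p under 0.05 over all genes tested. That is 29.4% of the members, close to the 34.9% of all tested genes that passed, of which 18.5% were higher and 16.3% lower, so the share called was near the background. Those that rose were Pfkl, Pdk1, Hif1a, Egln1, Bnip3, P4ha1 and P4ha2, and those that fell were Slc2a3, Slc2a6 and Adm. The median log2 fold change of the members was 0.60, and that of all tested genes -0.01. All 3 positive libraries stood above all 3 negative ones for 16 members, where 30.0% of all tested genes did, and below them for 5 members, where 29.4% did. In the remaining 13 the groups overlapped.

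The size of the difference depended on the pair. In pair 1 the median member was 1.80 higher on the log2 scale, and in pairs 2 and 3 only 0.12 and 0.16 higher, while the median of all tested genes lay between -0.01 and 0.01 in each pair. In pair 1, 23 of 34 members were more than 2-fold higher (22.4% of all tested genes were), and in pairs 2 and 3, 6 members each were (14.6% and 15.1%). Negative replicate 1 was the lowest of all 6 libraries for 25 members, where it was for 29.4% of tested genes. This is also the library with few macrophage and neutrophil and many B cell transcripts, and the part of that in the result was not tested. Positive replicate 1 differed from the other positive libraries too. It was the highest of them for every member except Slc2a3, Pfkfb3, Hif1a, Mxi1 and Kdm3a, where it was the lowest. Gapdh, for example, was 4658 CPM there, against 2523 and 2440 CPM in positive replicates 2 and 3. For Slc2a1 the negative libraries were close (57.7, 64.1 and 63.6 CPM), and positive replicate 1 stood out at 182 CPM. The pair 1 difference was above those of pairs 2 and 3 for 29 members (45.2% of tested genes), and 16 members were higher in all 3 pairs (36.8%).

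**Figure D1:**
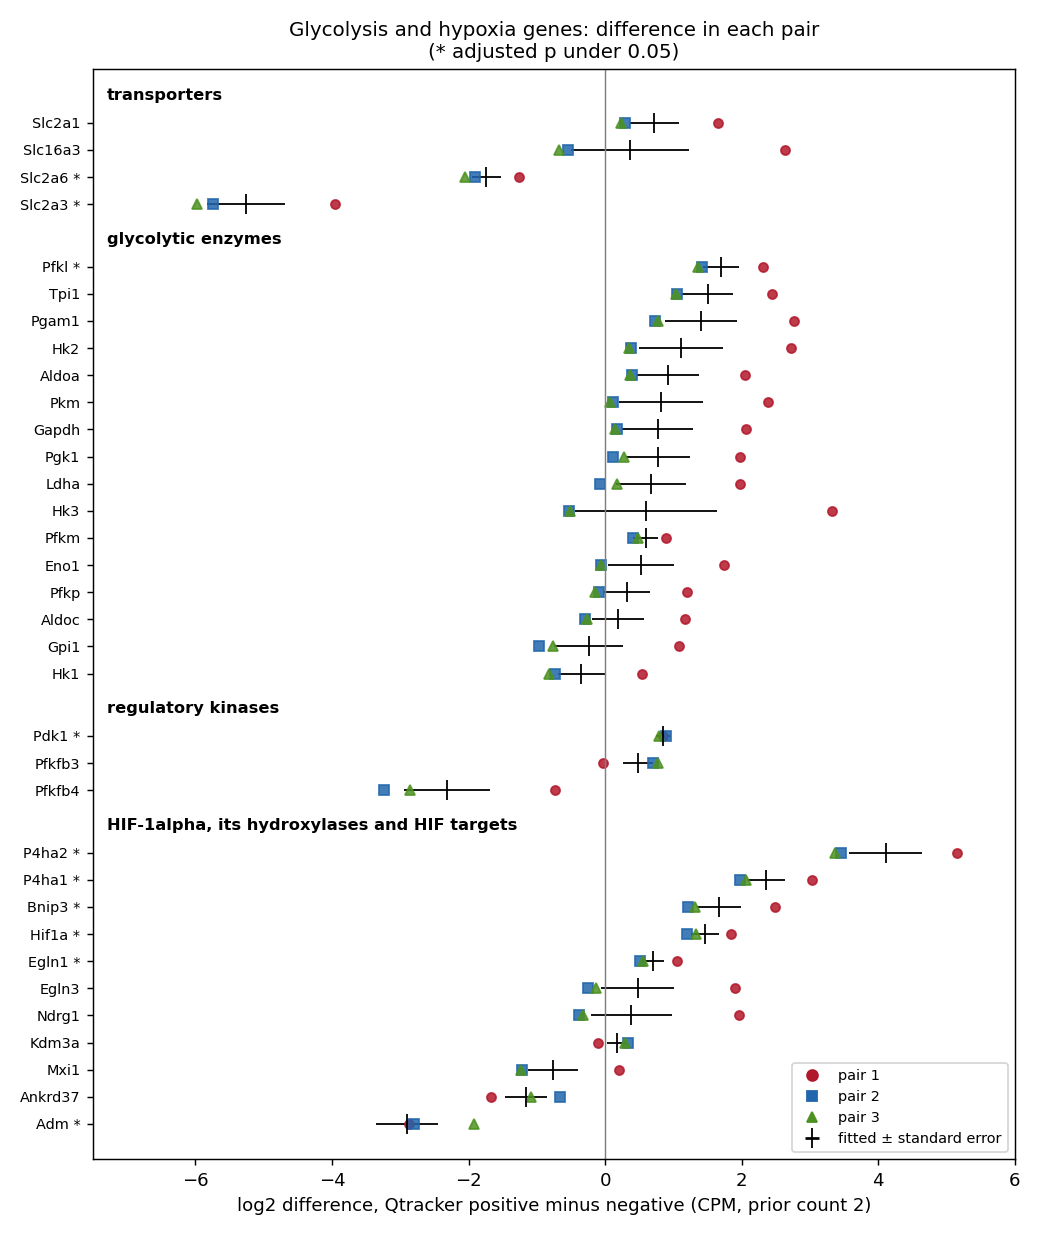
Difference between Qtracker positive and negative libraries for each of the 34 members, by role, on the log2 CPM scale (x axis); coloured points are the 3 pairs, and the black bar is the fitted value with its standard error. Pair 1 (circles) lies to the right of pairs 2 and 3 for 29 members, among them all 16 glycolytic enzymes, and only the 10 starred genes passed the test.

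Of the 4 transporters 2 fell, 0 rose and 2 did not pass, where 16.3% of all tested genes fell and 18.5% rose. Slc2a3, a high-affinity glucose transporter that is abundant in neutrophils and lymphocytes, stood at 52.1, 457 and 466 CPM in Qtracker negative replicates 1, 2 and 3 and at 3.33, 8.47 and 7.37 CPM in the positive ones. Every positive library lay below every negative one, and negative replicate 1 lay between. The log2 fold change was -5.26 ± 0.57 (standard error; adjusted p = 0.0128, edgeR), the largest fall among the members. On the authors' normalized values the fall was larger, at -6.52 on the log2 scale (limma, adjusted p = 0.00707). Within the negative group Slc2a3 was low where the neutrophil markers were low, and the part of neutrophils in its fall was not tested. Negative replicate 1 was below the other negative libraries for 30 of the 34 members, and for 46.3% of all tested genes.

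Slc2a6, a transporter of lysosomal membranes that is induced by inflammatory signals, stood at 48.5, 71.8 and 76.0 CPM in the negative and 20.3, 19.1 and 18.4 CPM in the positive libraries. The positive libraries were within a narrow range and the groups did not overlap. It fell by 1.74 ± 0.21 on the log2 scale (adjusted p = 0.0149, edgeR). Slc2a1, the widely expressed glucose transporter, was 57.7, 64.1 and 63.6 CPM in negative and 182, 78.6 and 75.0 CPM in positive libraries. Positive replicate 1 was far above the rest, and the change of 0.72 ± 0.36 did not pass (adjusted p = 0.189, edgeR). Slc16a3, which exports lactate, was 38.8, 203 and 209.6 CPM in negative and 241, 139 and 131 CPM in positive libraries, so it was higher in pair 1 and lower in pairs 2 and 3 (2.63, -0.55 and -0.68; adjusted p = 0.758, edgeR).

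The make-up of the 3 glucose transporters can be compared as CPM per kb of annotated exon. Slc2a3 was 60.8% and 60.6% of their sum in negative replicates 2 and 3, 18.6% in negative replicate 1, and 0.78% to 3.96% in the positive group. Slc2a1 made up 42.5%, 17.6% and 17.1% in the negative and 88.5%, 75.9% and 76.1% in the positive libraries. Thus Slc2a1 was the leading transporter of the 3 in every positive library. In negative replicates 2 and 3 it was Slc2a3.

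**Figure D2:**
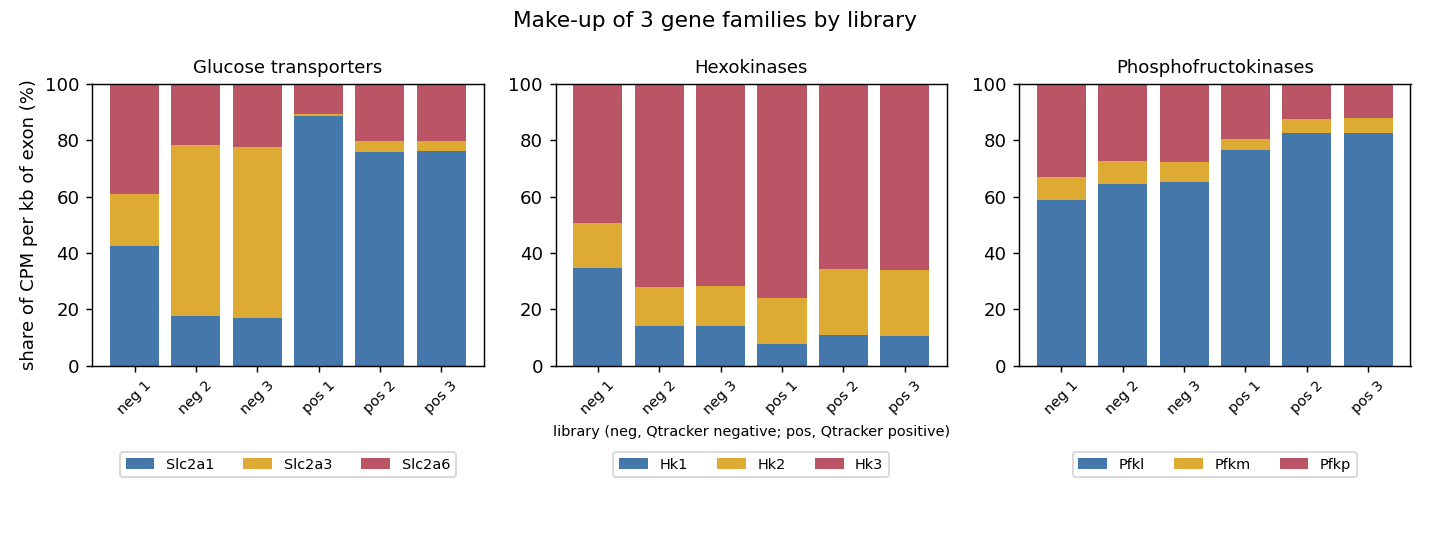
Share of each gene in the summed CPM per kb of exon of 3 families (y axis, %), for each of the 6 libraries (x axis). Slc2a3 is at most 3.96% in positive libraries, and Pfkl is at least 76.4% of the phosphofructokinases there against at most 65.1% in negative ones.

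Among the 16 glycolytic enzymes 1 rose, 0 fell and 15 did not pass, so 6.25% were called beside 34.9% of all tested genes. The one that rose was Pfkl, the liver-type subunit of phosphofructokinase, which commits sugar phosphate to glycolysis. It stood at 85.5, 116 and 117 CPM in negative and 427, 309 and 300.4 CPM in positive libraries. The groups were well separated, with a log2 fold change of 1.70 ± 0.26 (adjusted p = 0.0216, edgeR) and differences of 2.32, 1.42 and 1.36 in pairs 1, 2 and 3. The gene lies on chromosome 10 from 77986947 to 78010083 (mm10).

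Its relatives did not pass. Pfkp, the platelet-type subunit, was 96.0, 99.4 and 99.6 CPM in negative and 221, 93.6 and 89.9 CPM in positive libraries, so that only positive replicate 1 stood out. The fitted value of 0.32 became -0.03 with library totals as the only scaling. Pfkm, the muscle type, was 5.87, 7.32 and 6.45 CPM in negative and 10.9, 9.69 and 9.06 CPM in positive libraries, without overlap (0.60 ± 0.18, adjusted p = 0.0754, edgeR). Per kb of exon, Pfkl was 59.0% to 65.1% of the 3 subunits in negative libraries and 76.4% to 82.7% in positive ones. The share of Pfkp was 27.5% to 33.0% in negative and 12.3% to 19.7% in positive libraries.

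Hexokinases phosphorylate glucose as it enters the cell. Hk3, the myeloid isoform, was the most abundant of the 3 per kb of exon in every library, at 49.2% to 72.1% in negative and 65.5% to 76.0% in positive libraries. Its level was 72.1, 492 and 482 CPM in negative and 726, 342 and 339 CPM in positive libraries. Hk3 was thus higher in pair 1 (3.33) and lower in pairs 2 and 3 (-0.52 and -0.51), the widest gap between pairs among the enzymes (adjusted p = 0.674, edgeR). Hk2, the inducible isoform, was 38.2, 152 and 152 CPM in negative and 251, 199 and 194 CPM in positive libraries. All positive values lay above the negative ones, but the change of 1.11 ± 0.61 did not pass (adjusted p = 0.223, edgeR). Hk1, the widely expressed isoform, was 118, 223 and 220.03 CPM in negative and 172, 133 and 124 CPM in positive libraries, with overlap (-0.35 ± 0.34, adjusted p = 0.466, edgeR).

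The enzymes of the lower pathway were abundant in both groups. Gapdh, the dehydrogenase step, was 1118, 2235 and 2198 CPM in negative and 4658, 2523 and 2440 CPM in positive libraries. Its positive values lay above the negative ones, by little in pairs 2 and 3, and the change of 0.77 ± 0.52 did not pass (adjusted p = 0.302, edgeR). Tpi1, which interconverts the triose phosphates, was 149.9, 201 and 202 CPM in negative and 814, 418 and 413 CPM in positive libraries. It came nearest to the threshold among the enzymes that did not pass (adjusted p = 0.0503, edgeR), and passed by DESeq2 (adjusted p = 0.001). Pgam1, the mutase, was 123, 378 and 378 CPM in negative and 832, 629.6 and 647 CPM in positive libraries (1.40 ± 0.53, adjusted p = 0.113, edgeR), and passed by DESeq2 (adjusted p = 0.0182). Both were higher in every pair, Tpi1 by 2.44, 1.05 and 1.03 and Pgam1 by 2.76, 0.73 and 0.78 on the log2 scale.

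The remaining enzymes had fitted values from -0.24 to 0.92. Aldoa, the main aldolase, was 567, 1107 and 1099.6 CPM in negative and 2341, 1453 and 1419 CPM in positive libraries. Pgk1, the first ATP-forming step, was 83.5, 219.9 and 226 CPM in negative and 329, 238 and 274 CPM in positive libraries. Pkm, pyruvate kinase, was 578, 1762 and 1745 CPM in negative and 3009, 1908 and 1837 CPM in positive libraries. For these 3 genes the groups did not overlap, although the positive values of pairs 2 and 3 were close to the negative ones. Eno1, enolase, was 524, 1032 and 1028 CPM in negative and 1761, 985 and 983 CPM in positive libraries. Ldha, which turns pyruvate into lactate, was 208, 478 and 466 CPM in negative and 819.7, 456 and 523 CPM in positive libraries. Eno1 and Ldha thus differed in pair 1 and hardly at all in pairs 2 and 3. Gpi1, the isomerase, was 153, 377 and 384 CPM in negative and 324, 192 and 226 CPM in positive libraries, lower in pairs 2 and 3 (-0.97 and -0.76). Aldoc, a minor aldolase, was 9.36 to 12.4 CPM in negative and 9.59 to 21.02 CPM in positive libraries, and its fitted value of 0.19 turned to -0.16 with library totals as the only scaling. Adjusted p ran from 0.184 to 0.731 for these 7 enzymes (edgeR). Several of these genes have near-identical copies in the mouse genome with which reads may be shared. Of the copies tested, Eno1b was at most 18.1 CPM in any library and Pgam1-ps2 at 50.6 to 302 CPM, the latter a sizeable level beside that of Pgam1, which is therefore uncertain.

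**Figure D3:**
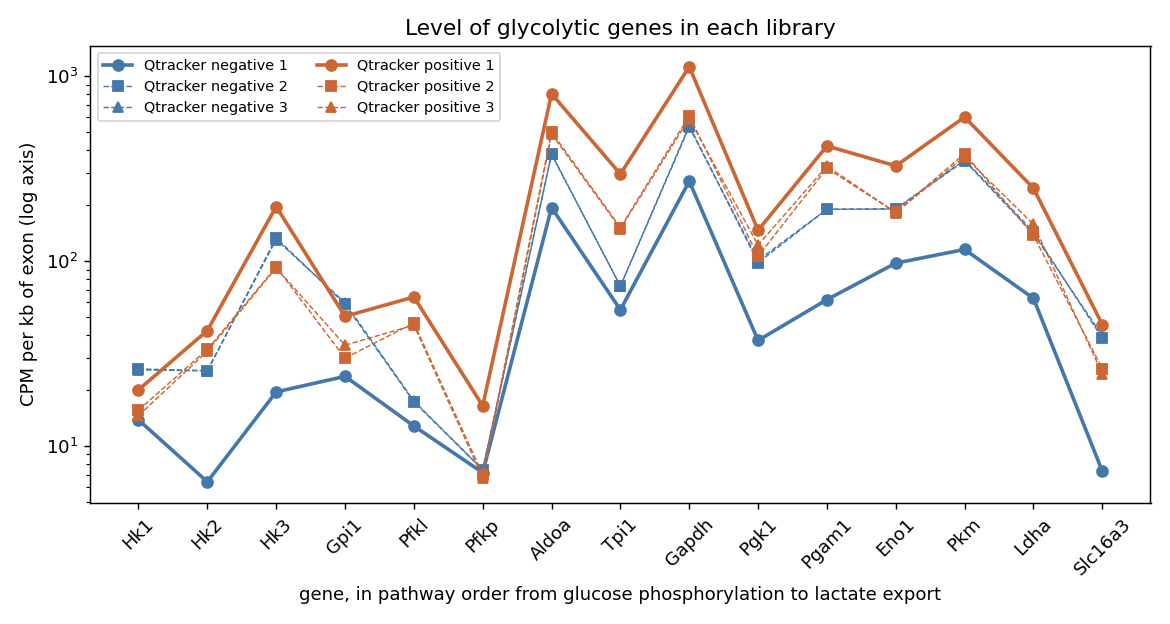
Level of 14 glycolytic enzymes and the lactate exporter Slc16a3 in each library, in CPM per kb of exon (y axis, log scale), in pathway order (x axis). Qtracker negative replicate 1 (thick blue line) is the lowest library for every gene shown except Pfkp, positive replicate 1 is the highest for all but Hk1 and Gpi1, and replicates 2 and 3 of the groups lie close together at Gapdh, Pkm, Eno1 and Ldha.

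The regulatory kinases set how fast pyruvate is made and where it goes. Pdk1, which inhibits pyruvate dehydrogenase and so keeps pyruvate out of mitochondria, was 46.3, 26.2 and 28.4 CPM in negative and 83.6, 48.5 and 49.1 CPM in positive libraries. The lowest positive library was only just above the highest negative one. Within pairs the rise was even, at 0.85, 0.89 and 0.79, with a fitted value of 0.84 ± 0.10 (adjusted p = 0.0151, edgeR). Without the pairing as a block the call was lost (adjusted p = 0.0788), and likewise with library totals as the only scaling (adjusted p = 0.0541).

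Pfkfb3 and Pfkfb4 make the sugar bisphosphate that activates phosphofructokinase. Pfkfb3 was 117, 117 and 112 CPM in negative and 115, 191 and 193 CPM in positive libraries, so positive replicate 1 was at the negative level and the others above it (0.49 ± 0.22, adjusted p = 0.156, edgeR). Pfkfb4 was 14.4, 56.4 and 55.7 CPM in negative and 8.67, 5.97 and 7.67 CPM in positive libraries, all positive values below the negative ones. Its change of -2.31 ± 0.63 missed the threshold (adjusted p = 0.0589, edgeR) but passed by DESeq2 (adjusted p = 0.000215), by limma-voom (adjusted p = 0.0331) and without the block (adjusted p = 0.0136). Within the negative group Pfkfb4 was lowest in replicate 1, the library with few neutrophil transcripts. That held for 30 of the 34 members, so it is not particular to Pfkfb4, and the part of neutrophils in its change was not tested.

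Of the 11 HIF pathway genes 5 rose, 1 fell and 5 did not pass, so 54.5% were called beside 34.9% of all tested genes. Hif1a itself was 145, 333 and 328 CPM in negative and 525, 766 and 824 CPM in positive libraries. The groups did not overlap, and unlike most enzymes positive replicate 1 was the lowest of the positive libraries. The log2 fold change was 1.46 ± 0.20 (adjusted p = 0.0183, edgeR), with 1.85, 1.20 and 1.33 in pairs 1, 2 and 3. Hif1a lies on chromosome 12 from 73901375 to 73947530 (mm10). The HIF alpha subunit is controlled mainly as a protein, which RNA does not measure.

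Among the prolyl hydroxylases that mark the alpha subunit for destruction, Egln1 and Egln3 are themselves HIF targets. Egln1, the main hydroxylase, was 47.9, 54.7 and 49.3 CPM in negative and 99.6, 78.2 and 72.4 CPM in positive libraries. It was higher in all 3 pairs and rose by 0.71 ± 0.16 (adjusted p = 0.043, edgeR), a call lost with library totals as the only scaling (adjusted p = 0.0962). Egln3, the strongly inducible relative, was 8.53, 25.0 and 25.8 CPM in negative and 32.0, 21.1 and 23.4 CPM in positive libraries. It was higher only in pair 1 and did not pass (0.48 ± 0.54, adjusted p = 0.518, edgeR).

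The steepest rises among the members were of the collagen prolyl hydroxylase subunits, whose enzyme modifies collagen in the endoplasmic reticulum. P4ha1 was 25.6, 38.6 and 39.0 CPM in negative and 209.8, 152 and 163 CPM in positive libraries, a log2 fold change of 2.35 ± 0.28 (adjusted p = 0.0148, edgeR). P4ha2 had few counts in the negative group, 13, 18 and 20 counts or 0.298, 0.403 and 0.430 CPM, and at 459, 238 and 230 counts or 12.1, 4.85 and 4.86 CPM in the positive group. It rose by 4.11 ± 0.53 on the log2 scale (adjusted p = 0.0163, edgeR). Both subunits were well separated between the groups, and P4ha1 remained by far the more abundant, at 96.3% or more of the pair per kb of exon in every library. The 8 stromal markers, some of them collagens, summed to 3.03 to 10.4 CPM in the negative and 8.19 to 9.90 CPM in the positive group. These are mouse genes and the MSCs were human, so the sums do not measure MSC RNA. Whether reads of human RNA were counted under mouse genes was not tested.

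Bnip3, a mitochondrial protein of mitophagy and cell death, was 9.95, 18.5 and 16.9 CPM in negative and 55.96, 43.3 and 42.1 CPM in positive libraries. It rose by 1.67 ± 0.32 (adjusted p = 0.0315, edgeR), with the groups apart. Adm, the secreted peptide adrenomedullin, had 80, 31 and 28 counts in negative and 8, 3 and 6 counts in positive libraries, or 1.83, 0.694 and 0.602 against 0.211, 0.0611 and 0.127 CPM. It fell by 2.91 ± 0.46 (adjusted p = 0.0221, edgeR), but with so few counts the size is imprecise.

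Other HIF targets did not pass. Ankrd37, an ankyrin repeat protein, was 8.46, 2.73 and 4.13 CPM in negative and 2.62, 1.71 and 1.92 CPM in positive libraries, all below the negative ones, at -1.16 ± 0.30 (adjusted p = 0.0553, edgeR; 0.00459 by DESeq2). Mxi1, an antagonist of MYC, was 38.6, 131 and 129 CPM in negative and 44.4, 56.3 and 54.9 CPM in positive libraries, lower in pairs 2 and 3 only (-0.76 ± 0.37, adjusted p = 0.18, edgeR). Ndrg1, a stress-responsive differentiation gene, was 21.5, 71.2 and 68.6 CPM in negative and 83.6, 54.9 and 55.0 CPM in positive libraries (0.38 ± 0.59, adjusted p = 0.636, edgeR). Kdm3a, a histone demethylase, was 42.5, 42.7 and 46.0 CPM in negative and 39.4, 54.0 and 56.3 CPM in positive libraries (0.17 ± 0.14, adjusted p = 0.388, edgeR), and turned to -0.17 with library totals as the only scaling. Well-known targets of the same factor thus lay on both sides, with P4ha1, P4ha2 and Bnip3 higher in every pair, Adm and Ankrd37 lower in every pair, and Ndrg1 and Egln3 higher in pair 1 and lower in pairs 2 and 3.

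**Figure D4:**
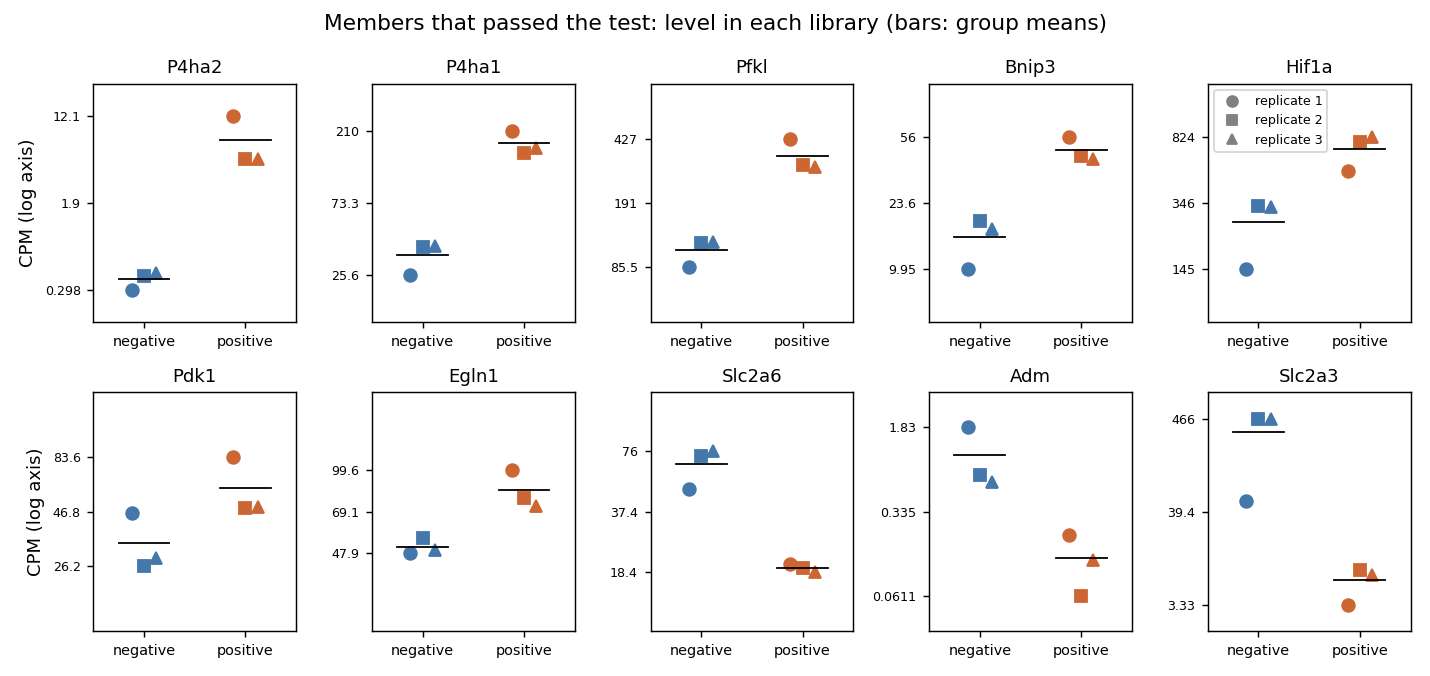
CPM in each library (y axis, log scale, with its own range in each panel) of the 10 members that passed the test, in Qtracker negative (blue) and positive (orange) libraries; symbols mark the replicate and bars the group means. No gene shown overlaps between groups, which choosing them by a test on these same values favours. Of all tested genes 30.0% lie wholly above and 29.4% wholly below in the positive group. Slc2a3 in negative replicate 1 (52.1 CPM) lies far below negative replicates 2 and 3 (457 and 466 CPM).

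Ratios between genes of the same step do not depend on a factor applied to a whole library, and 9 were compared. The authors' normalized values, whose formula is not given, can still give other ratios. With 3 libraries against 3, an exact two-sided permutation test cannot go below p = 0.1, and 7 of the 9 ratios reached that value (adjusted p = 0.129 over the 9). The log2 ratio of Slc2a3 to Slc2a1 was 1.85 ± 1.73 (SD, n = 3) in negative and -4.10 ± 1.43 in positive libraries, a difference of -5.95 that came to -7.24 on the authors' normalized values. Hk2 to Hk1 went from -0.90 ± 0.63 to 0.59 ± 0.05, so that Hk2 had more counts than Hk1 in every positive and fewer in every negative library. Pfkp to Pfkl went from -0.09 ± 0.23 to -1.47 ± 0.45, Pfkfb4 to Pfkfb3 from -1.70 ± 1.15 to -4.45 ± 0.66, and Aldoc to Aldoa from -6.32 ± 0.35 to -7.06 ± 0.23. P4ha2 to P4ha1 went from -6.36 ± 0.09 to -4.71 ± 0.52. Ldha to Ldhb, the other subunit of lactate dehydrogenase, went from 6.99 ± 0.33 to 6.02 ± 0.41. In these 7 every library of a group lay on one side of the other group. Hk2 to Hk3 (exact permutation p = 0.2) and Egln3 to Egln1 (exact permutation p = 0.8) overlapped.

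The wider pathway was read from lists that hold no member. Of 27 other tested genes of glycolysis, lactate and pyruvate handling 7 rose and 0 fell. That is 25.9%, below the 34.9% called among all tested genes, of which 18.5% rose and 16.3% fell. The 3 with the lowest p-values follow. Pdp1, the phosphatase that reactivates pyruvate dehydrogenase against Pdk1, averaged 5.05 ± 0.67 CPM (SD, n = 3) in negative and 44.7 ± 6.02 CPM in positive libraries and rose by 3.15 ± 0.20 on the log2 scale (adjusted p = 0.00721, edgeR). Mpc1, a subunit of the mitochondrial pyruvate carrier, rose from 50.01 ± 12.2 to 125 ± 31.0 CPM (1.32 ± 0.10), and Slc2a9, a urate and hexose transporter, from 11.9 ± 2.26 to 25.4 ± 1.91 CPM (1.11 ± 0.13). For these 3 genes the difference ran between 0.97 and 1.30 for Slc2a9 over the pairs, 1.28 and 1.36 for Mpc1, and 2.72 and 3.38 for Pdp1. They were picked by low p in a test with the pair as a block. Such a choice favours genes with even pairs, so the evenness is not a separate result. Dlat, a subunit of pyruvate dehydrogenase, Slc2a8, Tigar and Ldhd also rose, and are named after their values were seen. Both Pdk1 and Pdp1, which act on the same enzyme complex in opposite directions, were higher in the positive group.

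Of 33 other HIF pathway and hypoxia genes 8 rose and 4 fell. That is 36.4%, near the 34.9% of all tested genes, so the genes named here describe the list and do not set it apart. Epas1, which encodes the second HIF alpha subunit, rose from 2.34 ± 0.32 to 39.1 ± 12.7 CPM (SD, n = 3), by 4.03 ± 0.18 on the log2 scale (adjusted p = 0.00585, edgeR). Nampt, an enzyme of NAD synthesis, rose by 1.90 ± 0.19 and Bhlhe41, a transcriptional repressor, by 1.85 ± 0.24. Ccng2, a cyclin-related gene (-1.54 ± 0.10), Ddit4, an inhibitor of mTOR signalling (-1.09 ± 0.11), and the lipoprotein receptor Vldlr (-3.70 ± 0.40) fell, although they too are known hypoxia targets. Named after their values were seen, Car9, Plod1, Bhlhe40, Fam162a and Rbpj also rose and Hif3a fell. Vegfa, the angiogenic growth factor and a textbook HIF target, also named after its values were seen, was 43.8, 123 and 116 CPM in negative and 563, 332 and 315 CPM in positive libraries. It was higher in every positive library, but its change of 2.15 ± 0.60 did not pass (adjusted p = 0.0621, edgeR). In the pentose phosphate pathway, which branches from glycolysis, 0 of 10 genes rose and 2 fell, Rpia (-1.20 ± 0.22) and Prps1 (-0.90 ± 0.12). That is 20% called, where 34.9% of all tested genes were and 16.3% fell.

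Without replicate 1, the pair that stands apart, 17 members were higher and 12 lower by the same test, or 29 of 34, where 72.9% of 14932 tested genes were called, 37.1% higher and 35.8% lower. This setting rests on 2 close libraries a group. All 7 members that rose and all 3 that fell over the 3 pairs were called in the same direction here, but those calls already used these libraries. The agreement is therefore not independent support. Of the 16 enzymes 8 were higher, but by little in most, such as 0.17 ± 0.04 for Gapdh, 0.21 ± 0.05 for Pgk1 and 0.39 ± 0.04 for Aldoa, while Pfkl (1.40 ± 0.04), Tpi1 (1.06 ± 0.04) and Pgam1 (0.77 ± 0.04) were further apart. Lower were Hk1 (-0.77 ± 0.04), Hk3 (-0.50 ± 0.04), Gpi1 (-0.85 ± 0.06) and Aldoc (-0.28 ± 0.08). Pkm, Eno1, Ldha and Pfkp did not pass (adjusted p = 0.0572 to 0.437, edgeR). The transporter Slc16a3 was lower (-0.60 ± 0.05) and Slc2a1 higher (0.28 ± 0.04). Among HIF genes 6 were higher, with Kdm3a (0.33 ± 0.05) joining the 5 above, and 4 lower, with Ndrg1 (-0.34 ± 0.05), Ankrd37 (-0.88 ± 0.23) and Mxi1 (-1.21 ± 0.04) beside Adm. Without replicate 2, and without replicate 3, edgeR called 0 members in either direction, with 13 and 10 at an unadjusted p under 0.05. Of all genes, edgeR called 136 higher and 175 lower of 14831 without replicate 2, and 0 of 14803 without replicate 3. With an unadjusted p under 0.05 were 2218 higher and 2235 lower, and 2064 higher and 2145 lower. DESeq2 called 7 members higher and 3 lower in each of these settings, of which 5 and 2 were among those called over the 3 pairs. Of all genes, DESeq2 called 1513 higher and 1781 lower without replicate 2, and 1477 and 1749 without replicate 3. For limma-voom 2 members were higher and 1 lower in each, beside 732 genes higher and 893 lower, and 548 and 619.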

How the data were processed

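The deposited raw table holds whole-number estimated counts for each gene in 6 libraries, 3 in each group, and the submitters' processing notes name Salmon, FastQC and mm10 without versions. Salmon's expected counts need not be whole, so the deposited values are rounded. The annotation release, strand setting and formula of the authors' deposited normalized signal are not given in the sources used here, and that signal served only as an alternative. Of 21847 identifiers 21625 matched GENCODE M21 (the mm10 assembly), which gave coordinates and exon lengths and filled 5210 symbols.

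Genes kept by filterByExpr (minimum count 10, total 15) were scaled by TMM and tested with edgeR 4.0.16 in R 4.3.3 (quasi-likelihood, replicate number as block). Standard errors come from the F statistic. CPM use totals after TMM; log2 differences within pairs add a prior count of 2. The pairing is the design text's; same-numbered libraries' deviations from group means correlated at 0.198, 0.0769 and 0.158, and differently numbered ones at -0.185 to 0.147, where negative replicate 2 with positive 3 (0.147) and negative 3 with positive 2 (0.116) exceeded pair 2, so the values alone do not pair replicates 2 and 3. The procedure was run on simulated counts with the same dispersion for all genes, no pair effect and no outlying library. That setting differs from these data, so the run does not show how far the calls hold here. Alternatives were other scalings and filters, DESeq2 1.42.0, limma-voom (limma 3.58.1), no block, leaving out replicates in turn, and summing replicates 2 and 3. The members, lists, roles and the rule for named genes (all members; of each further pathway list the 3 lowest p-values among called genes in each direction) were chosen with earlier results of these data known. Per-kb levels use the union of annotated exons, not the lengths used by Salmon. At these depths the spread between replicates, more than counting, limited precision, except for Adm.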

Additional observations from a re-analysis of the deposited data

How the results depend on the processing

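The directions of the 10 called members were the same in each alternative that tested them, and the strict filter left out Adm. All alternatives use the libraries by which the 10 were called, so this is not independent of the calls. Precision was limited by the 3 pairs, of which pair 1 differs, and for Adm by low counts. Upper quartile factors and library totals alone moved the median of all tested genes to -0.15 and -0.36 on the log2 scale from -0.01. With library totals alone 1572 genes were higher, 5 members were lower, 0 kinases higher and 1 lower, and 2 HIF genes lower, and Pfkp (-0.030), Aldoc (-0.16) and Kdm3a (-0.17) changed sign. Upper quartile factors called 2 enzymes higher and 1 kinase lower. DESeq2 with the replicate block called 3665 genes and 5 members lower, 3 enzymes higher, 1 kinase lower and 2 HIF genes lower. Both limma-voom and limma on the authors' normalized values called 5 members lower, 2 enzymes higher, 1 kinase lower and 2 HIF genes lower. Without the replicate block 3 enzymes were called higher, 0 kinases higher and 1 lower, and all genes came to 2911 higher and 3058 lower. Leaving out a replicate gave ranges of 0 to 5538 genes higher and 0 to 5352 lower, 0 to 17 members higher and 0 to 12 lower. By role the ranges were 0 to 1 transporter higher and 0 to 3 lower, 0 to 8 enzymes higher and 0 to 4 lower, 0 to 2 kinases higher and 0 to 1 lower, and 0 to 6 HIF genes higher and 0 to 4 lower. With replicates 2 and 3 summed edgeR called 0 genes, 0 members and 0 of each role in either direction, with 2221 genes higher and 2267 lower at an unadjusted p under 0.05. Chosen after seeing the data, DESeq2 and limma-voom called 1582 and 665 genes higher there, and 1907 and 740 lower, of 15570 tested. DESeq2 called 7 members higher and 4 lower there, and limma-voom 2 and 1. Without replicate 2 they called 1513 and 732 genes higher, and limma-voom 893 lower, with 2 members higher and 1 lower. Without replicate 3 they called 1477 and 548 higher, and limma-voom 619 lower, with 2 members higher and 1 lower.

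Sign changes on leaving out a replicate were found for 8 members, none of them called over the 3 pairs. The ranges were -0.60 to 1.04 for Slc16a3, -0.50 to 1.41 for Hk3, -0.85 to 0.16 for Gpi1, -0.11 to 0.56 for Pfkp, -0.28 to 0.45 for Aldoc, -0.055 to 0.85 for Eno1, -0.18 to 0.89 for Egln3 and -0.34 to 0.82 for Ndrg1. Gpi1 was 0.13 with replicates 2 and 3 summed. The difference in the ratio of Egln3 to Egln1 ran from -0.73 to 0.078. For the ratios the replicate block (exact sign flips within 3 pairs, smallest p 0.25) leaves the differences as they are, such as -5.95 for Slc2a3 to Slc2a1, and cannot reach the threshold, so it does not bear on stability. Only Slc2a3 moved by over 1.5 times on the authors' normalized values among the members' fold changes, to -6.52. The cause of these changes was not tested.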
